A study of Mus musculus with 11 samples.

Results

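The genes described here are the collagen and laminin genes of mouse duodenal epithelium, measured in cells sorted by a fluorescent reporter. A gene was a member if its symbol had the form of a collagen chain (Col, a number, a, a number) or a laminin chain (Lama, Lamb or Lamc with a number) and if it held 15 or more counts summed over the 11 libraries. Of 55 matching symbols, 40 met the rule, 30 of them collagen and 10 laminin genes, out of 38283 genes in the table. The other 15 had 0 to 13 counts in total and were given no further value.

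Duodenal epithelium was dissociated, and reporter-positive and reporter-negative cells were collected by sorting in each of 2 mouse strains. In the strain Neurod1-cre-eYFP, a Cre recombinase driven by Neurod1 labels cells that express or have expressed this endocrine transcription factor with eYFP. In the strain GluVenus, the proglucagon promoter drives the yellow protein Venus. The groups were NeuroD1 positive (3 libraries), NeuroD1 negative (3 libraries), Glu positive (3 libraries) and Glu negative (2 libraries). The negative cells carry the same transgenes as the positive cells of their strain, are all other sorted cells of the digest rather than a purified cell type, and were collected in similar number. The labels give each library a number but no age, sex or treatment. Nothing in them ties a number to an animal of its own, and every p-value below therefore reflects variation among libraries that may be technical.

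Collagens are trimers of chains wound into a triple helix, and laminins are cross-shaped trimers of an alpha, a beta and a gamma chain. Laminins and type IV collagen form the sheet on which the gut epithelium rests, whereas fibril-forming collagens fill the connective tissue beneath it and are made mainly by fibroblasts and smooth muscle. Epithelial cells are tied to such sheets by integrins. In epithelia whose hemidesmosomes hold them, the membrane-spanning collagen XVII and a laminin with the chains Lama3 and Lamb3 also take part. Whether duodenal cells form hemidesmosomes of this kind was not tested.

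Library totals ran from 2279595 to 5722381 counts, and levels are given as CPM, the count scaled to a common library size and adjusted by TMM, the trimmed mean of M-values. The labelled populations were checked against marker genes. The summed level of 8 enteroendocrine markers (Chga and Chgb among them) was 40980 to 59550 CPM in the NeuroD1 positive libraries and 1967 to 2356 in the NeuroD1 negative ones. It was 10580 to 28500 in the Glu positive libraries and 1022 to 1217 in the Glu negative ones. The sum of 8 general epithelial markers was 2100 to 4391 CPM over all 11 libraries. Stromal markers were present in every library at a far lower level. In the NeuroD1 strain the sum of 10 fibroblast markers was 25.0 to 43.1 CPM in positive and 107 to 220 in negative libraries. For Glu cells it was 82.3 to 247 CPM in positive and 374 to 378 in negative libraries, and none of the 10 was at 0 in any group.

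Of the 40 members, 31 passed the filter on low counts and were tested with edgeR's quasi-likelihood test over 14332 genes, where a p adjusted by Benjamini and Hochberg and under 0.05 made a call. The 9 members not tested were Col11a2, Col20a1, Col25a1, Col4a5, Col4a6, Col5a3, Col6a4, Col6a6 and Lama1. In the NeuroD1 strain, 4 of the 31 were higher in positive cells (6.57% of all genes tested were called higher) and 8 were lower (7.61% of all genes were called lower). The higher members included Col17a1, Col6a5 and Col8a1, and the lower ones were Col1a1, Col3a1, Col4a1, Col4a2, Col5a2, Col6a2, Lama2 and Lama3. Among Glu cells, 2 of the 31, Col17a1 and Col8a1, were higher in positive cells (4.22% of all genes) and 0 were lower (2.41% of all genes). By DESeq2 and limma voom, 1 and 3 members were lower there (3.91% and 3.17% of all genes), and with library totals in place of TMM edgeR called 1 higher and 2 lower. At an unadjusted p under 0.05, 16 members passed in the NeuroD1 strain (26.4% of all genes) and 9 in the Glu strain (23.4% of all genes).

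The median log2 fold change of positive against negative cells over the 31 members was -1.37 in the NeuroD1 strain, where the median of all genes was 0.02. The Glu median was -0.83, with 0.12 for all genes. With library totals the medians of all genes became -0.28 and -0.19. The shares of all genes called higher and lower then became 4.42% and 9.6% in the NeuroD1 strain, where 3 members were higher and 8 lower, and 2.51% and 3.41% in the Glu strain. The count of lower members in the NeuroD1 strain was 4 without NeuroD1_positive_6360 and 5 without NeuroD1_positive_6361, where 5.03% and 5.05% of all genes were called lower. Counting only members whose libraries do not overlap between the groups, NeuroD1 positive cells had 5 higher and 12 lower (18.3% and 17.2% of all genes). By the same count 3 were higher and 15 lower in Glu positive cells (15.8% and 16.5% of all genes).

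**Figure D1:**
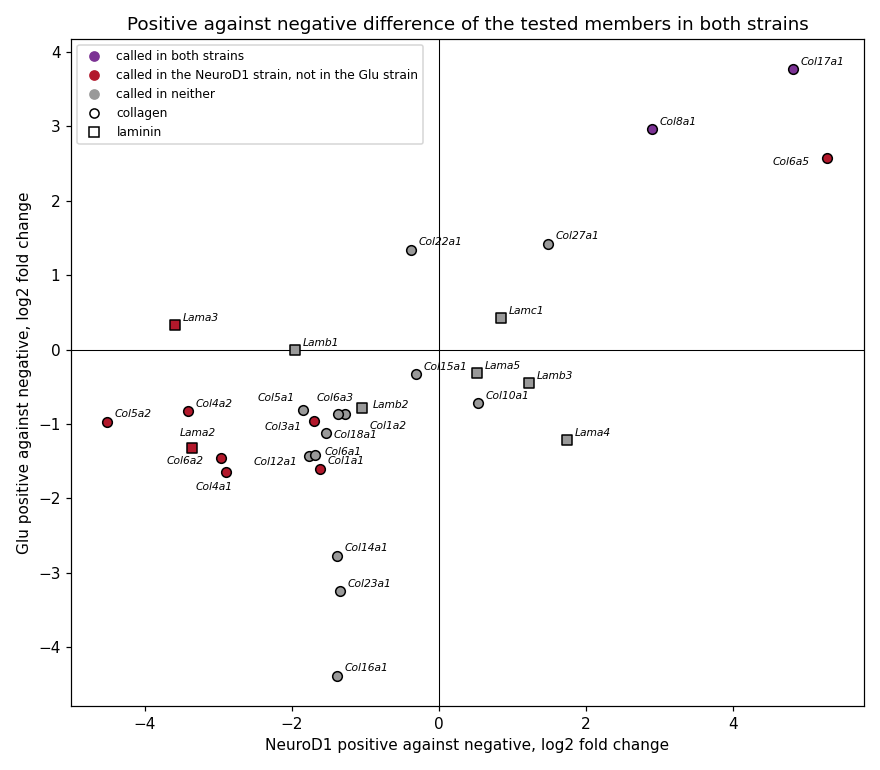
Log2 fold change of reporter-positive against reporter-negative cells for 30 of the tested members, in the NeuroD1 strain (x axis) and in the Glu strain (y axis); circles are collagens, squares laminins, and colour gives the edgeR call. Col17a1, Col8a1 and Col6a5 stand at the upper right, Lama3 is low on the x axis, and most fibrillar and type IV chains lie at the lower left.

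Sequence upstream of 4 of these genes is given first, for the 3 collagens with the highest fold changes in NeuroD1 positive cells and for Col3a1, a fibril-forming collagen that fell there. NeuroD1 is a basic helix-loop-helix factor, and factors of this class bind the E-box, whose letters are CANNTG. The sequences are RefSeq promoters on GRCm38.p6, read 5′ to 3′ on the gene's strand and ending at the annotated start, with each CANNTG in capitals. For Col17a1 the 52 bases nearest the start were left out because they are annotated as exon.
Col17a1 (chr19:47692095-47692292, minus strand): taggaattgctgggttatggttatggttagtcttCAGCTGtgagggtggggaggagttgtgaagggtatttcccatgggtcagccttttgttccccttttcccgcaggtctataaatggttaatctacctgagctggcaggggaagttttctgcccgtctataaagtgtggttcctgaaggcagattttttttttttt
Col6a5 (chr9:105960644-105960893, minus strand): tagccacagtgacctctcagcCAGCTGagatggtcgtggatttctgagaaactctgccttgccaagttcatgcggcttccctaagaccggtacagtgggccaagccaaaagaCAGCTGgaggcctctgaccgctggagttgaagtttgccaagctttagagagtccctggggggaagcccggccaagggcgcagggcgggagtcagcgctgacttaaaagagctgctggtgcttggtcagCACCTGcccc
Col8a1 (chr16:57754738-57754987, minus strand): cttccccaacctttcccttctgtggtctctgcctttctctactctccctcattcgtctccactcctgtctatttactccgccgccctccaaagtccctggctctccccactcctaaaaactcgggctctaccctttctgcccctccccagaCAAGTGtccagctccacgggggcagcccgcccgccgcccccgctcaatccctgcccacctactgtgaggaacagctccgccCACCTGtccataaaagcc
Col3a1 (chr1:45311288-45311537, plus strand): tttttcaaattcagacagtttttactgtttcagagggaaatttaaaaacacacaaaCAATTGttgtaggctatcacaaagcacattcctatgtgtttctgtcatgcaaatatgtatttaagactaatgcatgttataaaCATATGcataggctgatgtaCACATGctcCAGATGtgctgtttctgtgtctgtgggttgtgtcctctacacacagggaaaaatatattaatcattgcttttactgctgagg

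In the full 250 bases the E-box occurred 3 times upstream of Col6a5, 4 times upstream of Col3a1 and 2 times each upstream of Col8a1 and Col17a1, of which 1 is in the 198 bases printed for Col17a1. Promoter entries matched 30 of the 40 members with 33 starts. In the 250 bases before each start, CANNTG, which reads the same on both strands, was present in 18 of the 33 (54.5%) and in 66.2% of all 32851 promoters of the table. The narrower form CAGATG, a subset of CANNTG searched on both strands, was present in 5 of 33 (15.2%) against 14.4% of all promoters. TATAAA, searched on both strands, was present in 4 of 33 (12.1%) against 12.4%. These are matches of letters and show no binding.

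Col17a1 encodes the single chain of collagen XVII, a membrane-spanning protein of hemidesmosomes (ENSMUSG00000025064, chr19:47646344-47692094). Its level was 17.3, 18.7 and 14.8 CPM in the 3 NeuroD1 positive libraries and 0.705, 0 and 0.873 in the NeuroD1 negative ones. It was 10.2, 3.44 and 10.3 CPM in Glu positive and 0.840 and 0.221 in Glu negative libraries. Every positive library exceeded every negative library, and the 5 negative libraries were all below 1 CPM. Col17a1 had 6 counts in NeuroD1 negative and 7 in Glu negative libraries, so the size of its fold changes rests on few counts. The log2 fold change was 4.82 ± 0.91 (SE) in the NeuroD1 strain (edgeR adjusted p = 0.00134) and 3.77 ± 0.99 in the Glu strain (edgeR adjusted p = 0.0288). With only 2 Glu negative libraries, the Glu call was lost when Glu_negative_4665 (log2 5.01) or Glu_negative_5254 (log2 3.23) was left out. Fewer of all genes were called in those fits too. The Glu call was also lost with library totals (log2 3.44, edgeR adjusted p = 0.0603) and with the compared groups alone (log2 3.74, edgeR adjusted p = 0.122).

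Lama3, the alpha chain of the hemidesmosomal laminin (ENSMUSG00000024421), was lower in NeuroD1 positive cells. Its level was 0, 1.14 and 0.636 CPM in NeuroD1 positive and 1.59, 9.04 and 12.2 in NeuroD1 negative libraries, without overlap. The NeuroD1 positive libraries held 6 counts of Lama3 in all. Its log2 fold change was -3.59 ± 1.03 (edgeR adjusted p = 0.0244), and NeuroD1_negative_6360, at 1.59 CPM, was close to the highest positive library. Glu levels were 4.27, 8.61 and 7.28 CPM in positive and 7.00 and 3.54 in negative libraries, which overlapped, with a log2 fold change of 0.33 ± 0.95. That Glu value was -0.08 without Glu_negative_5254 and -0.04 with library totals. In the NeuroD1 strain the call was lost without NeuroD1_positive_6360, NeuroD1_positive_6362, NeuroD1_negative_6361 or NeuroD1_negative_6362, with log2 values of -3.65 to -3.04 and edgeR adjusted p of 0.0629 to 0.106, and by limma voom (log2 -3.02, adjusted p = 0.108).

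Lamb3, the beta chain of the same laminin, was at 9.92, 4.20 and 1.70 CPM in NeuroD1 positive and 2.996, 3.51 and 0 in NeuroD1 negative libraries. The groups overlapped, and the log2 fold change of 1.23 ± 1.01 did not pass the test (edgeR adjusted p = 0.499). Of the hemidesmosome partners among the receptor genes, the integrin chain Itgb4 fell in NeuroD1 positive cells, from 89.5 to 106 to 13.2 to 23.3 CPM, with a log2 fold change of -2.53 ± 0.43 (edgeR adjusted p = 0.000561). Itga6, which pairs with it, was at 104 to 137 CPM in NeuroD1 positive and 111 to 120 in NeuroD1 negative libraries, with a log2 fold change of 0.08 ± 0.31. The linker genes Plec and Dst had log2 values of -0.63 and 0.13 and were not called.

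**Figure D2:**
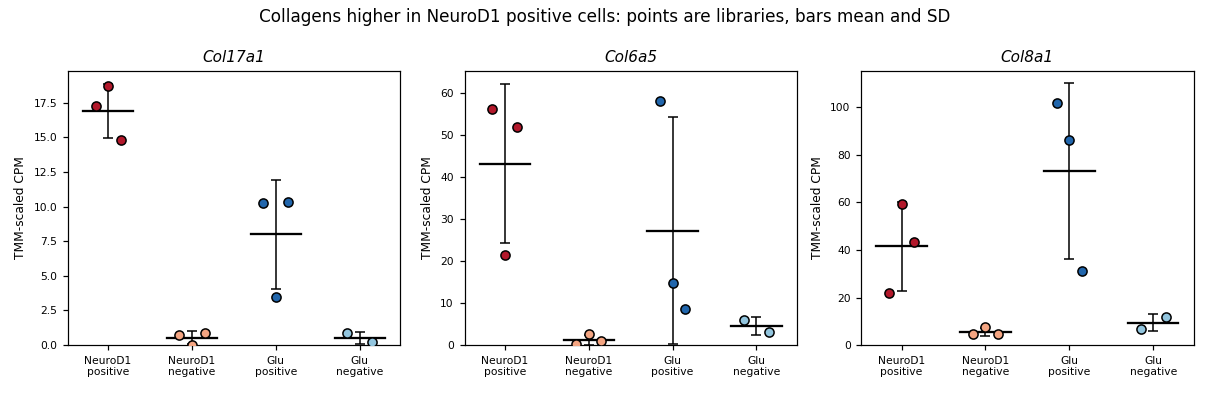
TMM-scaled CPM of 3 collagens called higher in NeuroD1 positive cells, by group; points are libraries, the thick bar is the mean and the whiskers are 1 SD. Col17a1 is below 1 CPM in the 5 negative libraries, and for each gene the positive libraries lie above the negative libraries of their strain.

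The remaining laminin chains were led by Lamc1, the gamma chain common to most laminins (ENSMUSG00000026478, chr1:153218922-153332786), which was singled out after its values were seen. Per kilobase of exon it was the highest member in NeuroD1 positive cells, at 10.2 CPM per kb on average, and its 3 libraries lay above all libraries of the next member. Its level was 70.9, 104 and 77.4 CPM in NeuroD1 positive and 65.9, 40.7 and 33.2 in NeuroD1 negative libraries. In the Glu strain it was 103, 42.4 and 53.1 CPM in positive and 42.9 and 56.6 in negative libraries. The NeuroD1 groups did not overlap and the Glu groups did. Neither difference passed the test, with log2 values of 0.85 ± 0.41 (edgeR adjusted p = 0.198) and 0.42 ± 0.46 (edgeR adjusted p = 0.628).

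Lama2, the alpha chain of laminins of muscle and mesenchyme (ENSMUSG00000019899, chr10:26980036-27619758), was at 0.734, 0.382 and 1.48 CPM in NeuroD1 positive and 10.9, 8.54 and 9.60 in NeuroD1 negative libraries. Its log2 fold change was -3.36 ± 0.79 (edgeR adjusted p = 0.00736), and all 3 positive libraries were below 1.5 CPM. Its Glu levels were 2.71, 5.86 and 5.16 CPM in positive and 8.12 and 14.6 in negative libraries, without overlap, and the log2 fold change of -1.32 ± 0.75 was not called (edgeR adjusted p = 0.301). Antisense Gm48084 shares 3.86% of the Lama2 exon bases, and strand use in the counting is not given in the sources used here.

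Lama4, a chain of vessel-wall and muscle laminins, was at 27.9, 3.82 and 6.78 CPM in NeuroD1 positive libraries, where NeuroD1_positive_6360 stood far above the other two. It was at 2.29, 4.52 and 4.80 CPM in NeuroD1 negative libraries and was not called. Lama5, the alpha chain of the mature epithelial sheet, was at 2.97 to 7.34 CPM in NeuroD1 positive and 3.01 to 5.29 in NeuroD1 negative libraries. It was at 3.03 to 5.17 CPM in the positive and 4.48 to 6.41 in the negative Glu libraries, and these ranges all overlap. The beta chains Lamb1 and Lamb2 had log2 values of -1.96 ± 0.71 and -1.04 ± 0.78 in the NeuroD1 strain and were not called. Lamb1 was at 1.84, 1.14 and 2.54 CPM in NeuroD1 positive and 7.40, 6.02 and 8.73 in NeuroD1 negative libraries, without overlap, while its Glu groups overlapped. Lamb2 was at 3.305, 2.29 and 1.27 CPM in NeuroD1 positive and 5.64, 2.51 and 5.675 in NeuroD1 negative libraries, which overlapped. Its Glu levels were 3.99, 3.10 and 4.85 CPM in positive and 5.32 and 8.40 in negative libraries, without overlap and not called. Lama1 was not tested: 13 of its 28 counts came from NeuroD1_negative_6361.

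**Figure D3:**
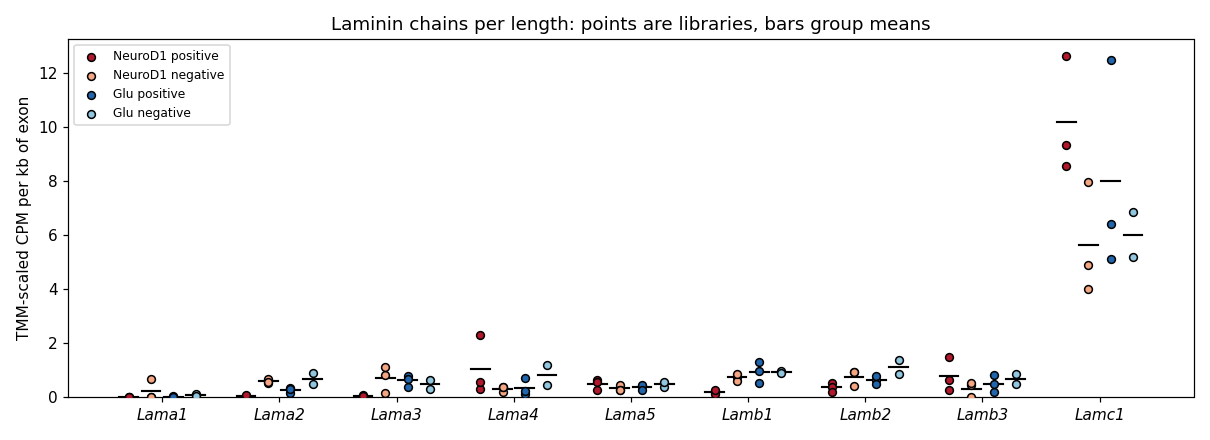
TMM-scaled CPM per kilobase of exon for 9 laminin members, by group; points are libraries and bars are group means. Lamc1 lies above the other chains shown in each group, and Lama3 is near 0 in NeuroD1 positive libraries.

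The network collagen of the basement membrane was lower in NeuroD1 positive cells. Col4a1 and Col4a2, whose chains assemble into one trimer, are divergent neighbours (chr8:11198423-11312826 and chr8:11312805-11449287) that share 22 exon bases on opposite strands. Col4a1 was at 3.30, 2.29 and 2.54 CPM in NeuroD1 positive and 28.4, 18.6 and 13.5 in NeuroD1 negative libraries, and Col4a2 at 3.67, 0.763 and 4.24 against 53.6, 29.1 and 11.8. For each gene the groups did not overlap. The log2 fold change was -2.89 ± 0.64 for Col4a1 (edgeR adjusted p = 0.00489) and -3.41 ± 0.78 for Col4a2 (edgeR adjusted p = 0.00573). Glu levels of Col4a1 were 3.13, 8.61 and 9.40 CPM in positive and 18.1 and 25.4 in negative libraries, without overlap. Its log2 fold change of -1.64 ± 0.64 was not called (edgeR adjusted p = 0.135). Col4a2 overlapped there, at 2.56, 8.27 and 10.9 against 16.7 and 8.62 CPM. Col4a5 and Col4a6, with 25 and 22 counts in all, were not tested.

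Col8a1, a short-chain collagen that forms hexagonal nets beneath endothelial cells (ENSMUSG00000068196, chr16:57624258-57754737), was higher in the positive cells of each strain. Its level was 22.0, 59.1 and 43.4 CPM in NeuroD1 positive and 4.58, 7.53 and 4.80 in NeuroD1 negative libraries. It was 102, 86.1 and 31.2 CPM in Glu positive and 6.86 and 11.9 in Glu negative libraries. The lowest positive library of the series, at 22.0 CPM, lay above the highest negative one, at 11.9. The log2 fold change was 2.90 ± 0.56 in the NeuroD1 strain (edgeR adjusted p = 0.00166) and 2.96 ± 0.64 in the Glu strain (edgeR adjusted p = 0.00904). The Glu call was lost without Glu_negative_4665 (log2 2.64) or without Glu_negative_5254 (log2 3.43), fits in which fewer of all genes were called too. Endothelial markers, summed over 10 genes, were lower in the positive libraries of each strain. The sums were 16.9 to 38.8 CPM in NeuroD1 positive and 50.2 to 107 in NeuroD1 negative libraries, and 24.8 to 53.4 in Glu positive against 61.9 to 70.5 in Glu negative ones. None of the 10 endothelial markers was at 0 in any group. Col10a1, the other short-chain member and a cartilage collagen, was at 1.48 to 4.96 CPM in NeuroD1 positive and 0.437 to 3.51 in NeuroD1 negative libraries and was not called.

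Within the beaded-filament collagens, Col6a5 and the classical chains Col6a1, Col6a2 and Col6a3 ran in opposite directions. Col6a5 is a chain related to Col6a3 that can stand in its place (ENSMUSG00000091345, chr9:105856078-105960643). Its level was 56.2, 21.4 and 51.9 CPM in NeuroD1 positive and 0.352, 2.51 and 0.873 in NeuroD1 negative libraries. It was 58.1, 14.8 and 8.50 CPM in Glu positive and 6.02 and 3.10 in Glu negative libraries. In each strain every positive library exceeded every negative one, although Glu_positive_5160 and Glu_positive_5254 were far below the third. The NeuroD1 negative libraries held 9 counts of Col6a5 in all. The log2 fold change was 5.29 ± 0.89 in the NeuroD1 strain (edgeR adjusted p = 0.000496). It was 2.57 ± 0.85 and not called in the Glu strain (edgeR adjusted p = 0.0793). It was called without Glu_positive_5254 (log2 2.99, edgeR adjusted p = 0.0207), without the filter on low counts (edgeR adjusted p = 0.0124) and by DESeq2 (adjusted p = 0.0187). Without Glu_positive_4665 the log2 value was 1.34 (edgeR adjusted p = 0.258).

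Col6a2 (ENSMUSG00000020241, chr10:76595762-76623630) was at 1.10, 2.29 and 3.82 CPM in NeuroD1 positive and 13.0, 27.1 and 18.8 in NeuroD1 negative libraries. In the Glu strain it was at 7.98, 19.98 and 17.6 CPM in positive and 42.3 and 40.9 in negative libraries. The positive libraries lay below the negative ones in each strain. The log2 fold change was -2.96 ± 0.62 in the NeuroD1 strain (edgeR adjusted p = 0.00310) and -1.46 ± 0.60, not called, in the Glu strain (edgeR adjusted p = 0.153). Col6a1 had log2 values of -1.68 ± 0.74 and -1.41 ± 0.71 in the NeuroD1 and Glu strains, and Col6a3 had -1.37 ± 0.68 and -0.86 ± 0.70. Neither was called in these comparisons, although positive and negative libraries of each did not overlap in either strain.

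The chain makeup of the transcripts differed accordingly. Per kilobase of exon, the ratio of Col6a5 to Col6a2 was 8.26 to 45.1 over the NeuroD1 positive libraries and 0.0239 to 0.0819 over the NeuroD1 negative ones. The NeuroD1 positive ratios rest on only 3, 6 and 18 counts of Col6a2. The ratio of Col6a5 to Col6a2 was 0.427 to 6.44 in the positive and 0.0669 to 0.126 in the negative Glu libraries. The ratio of Col6a1 to Col6a2 ranged over a much narrower span, from 0.458 to 1.90 over all 11 libraries. That of Col6a3 to Col6a2 was 0.928 to 1.39 in NeuroD1 positive and 0.168 to 0.687 in NeuroD1 negative libraries. The related chains Col6a4 and Col6a6, neighbours of Col6a5 on chromosome 9, were not tested. Col6a4 had 0 counts in NeuroD1 positive and 10 in NeuroD1 negative libraries, at least 3.37-fold lower when the positive group is set at a floor of 3 counts. Of the 45 counts of Col6a6, 34 were in Glu_positive_4665.

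Among the fibril-forming collagens, 3 of 6 tested members fell in NeuroD1 positive cells and 0 were called in the Glu strain. Col1a1, the main chain of collagen I (ENSMUSG00000001506, chr11:94936224-94953042), was at 8.45, 21.4 and 17.8 CPM in NeuroD1 positive and 70.2, 32.6 and 43.2 in NeuroD1 negative libraries. It was at 9.26, 23.8 and 24.9 CPM in Glu positive and 41.3 and 74.7 in Glu negative libraries. Positive and negative libraries did not overlap in either strain. The log2 fold change was -1.62 ± 0.52 in the NeuroD1 strain (edgeR adjusted p = 0.0444) and -1.60 ± 0.56 in the Glu strain (edgeR adjusted p = 0.0953). Col1a2, its partner chain, was at 5.14 to 13.4 CPM in NeuroD1 positive and 15.6 to 32.8 in NeuroD1 negative libraries and was not called, with a log2 value of -1.27 ± 0.58.

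Col3a1, the single chain of collagen III (ENSMUSG00000026043, chr1:45311538-45349706), was at 8.45, 14.9 and 21.0 CPM in NeuroD1 positive and 65.6, 42.2 and 37.1 in NeuroD1 negative libraries. The groups were apart, and the log2 fold change was -1.70 ± 0.52 (edgeR adjusted p = 0.0333). Its Glu levels were 13.8, 54.4 and 46.1 CPM in positive and 60.5 and 87.3 in negative libraries, also apart, with a log2 value of -0.96 ± 0.55 that was not called. The NeuroD1 call of Col1a1 was lost when any single library of the strain other than NeuroD1_negative_6361 was left out (log2 -1.88 to -1.26, edgeR adjusted p of 0.0607 to 0.229) and with the replicate number as a block (log2 -1.61, edgeR adjusted p = 0.0598). That of Col3a1 was lost without NeuroD1_positive_6360, NeuroD1_positive_6361, NeuroD1_negative_6360 or NeuroD1_negative_6361 (log2 -1.79 to -1.42, edgeR adjusted p of 0.0539 to 0.159). Limma voom called neither Col1a1 (adjusted p = 0.0568) nor Col3a1 (adjusted p = 0.0701).

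Col5a2, a chain of the collagen V that seeds collagen I fibrils (ENSMUSG00000026042, chr1:45374321-45503282), was at 0, 0 and 0.424 CPM in NeuroD1 positive and 5.46, 4.02 and 4.80 in NeuroD1 negative libraries. This is 2 counts against 50, so that the level in negative cells was 25.3 times that in positive cells, with an exact interval at a confidence of 95% of 6.64 to 214 that covers counting error only. The edgeR adjusted p was 0.0132, and it was 0.0522 and 0.0513 without NeuroD1_positive_6360 and NeuroD1_positive_6361. Its Glu groups overlapped, at 0.997, 2.41 and 3.94 against 2.66 and 6.86 CPM. Col27a1, a fibrillar collagen of cartilage and epithelia, pointed to higher levels in positive cells, with log2 values of 1.49 ± 0.83 and 1.42 ± 0.94, but its libraries overlapped in both strains and it was not called. Its level was 5.88, 24.4 and 35.0 CPM in NeuroD1 positive and 14.4, 4.52 and 3.49 in NeuroD1 negative libraries. Col5a1 was not called, and Col5a3 and Col11a2 were not tested. Of the 74 counts of Col11a2, 50 were in Glu_positive_4665.

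The fibril-associated collagens, which coat fibrils, and the endostatin-type collagens of basement membranes held no called member in either strain. Col14a1 was the highest of the former per length, at 5.69 CPM per kb in Glu negative cells. Its level was 0.367, 5.72 and 4.87 CPM in NeuroD1 positive and 15.3, 2.51 and 10.5 in NeuroD1 negative libraries. In the Glu strain it was 2.14, 9.99 and 5.76 CPM in positive and 30.5 and 49.3 in negative libraries. Only the Glu groups were apart, with a log2 value of -2.77 ± 0.86 (edgeR adjusted p = 0.0610). Col16a1 had 2 counts in Glu positive and 39 in Glu negative libraries, a ratio of 22.1 (exact interval at a confidence of 95% of 5.72 to 189), with an edgeR adjusted p of 0.0727. Col12a1 was at 2.42 to 15.2 CPM in the positive and 27.2 to 28.8 in the negative Glu libraries, also without overlap and not called.

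Col15a1, the higher of the endostatin-type collagens per length, was at 14.7, 12.2 and 3.39 CPM in NeuroD1 positive and 21.3, 10.5 and 4.80 in NeuroD1 negative libraries. These overlap, as did its Glu groups. Col18a1 was at most 5.24 CPM in any library. Col22a1, a collagen of muscle-tendon junctions, reached 14.6 CPM in Glu_positive_5254 and at most 2.80 CPM in the other 10 libraries. Among the membrane-spanning collagens other than Col17a1, Col23a1 had a log2 value of -3.25 ± 1.32 in the Glu strain and was not called. Col25a1, a collagen of neurons, was not tested and had 40 of its 69 counts in NeuroD1_positive_6362. Col20a1, with 36 counts, was highest in the same library at 3.18 CPM.

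**Figure D4:**
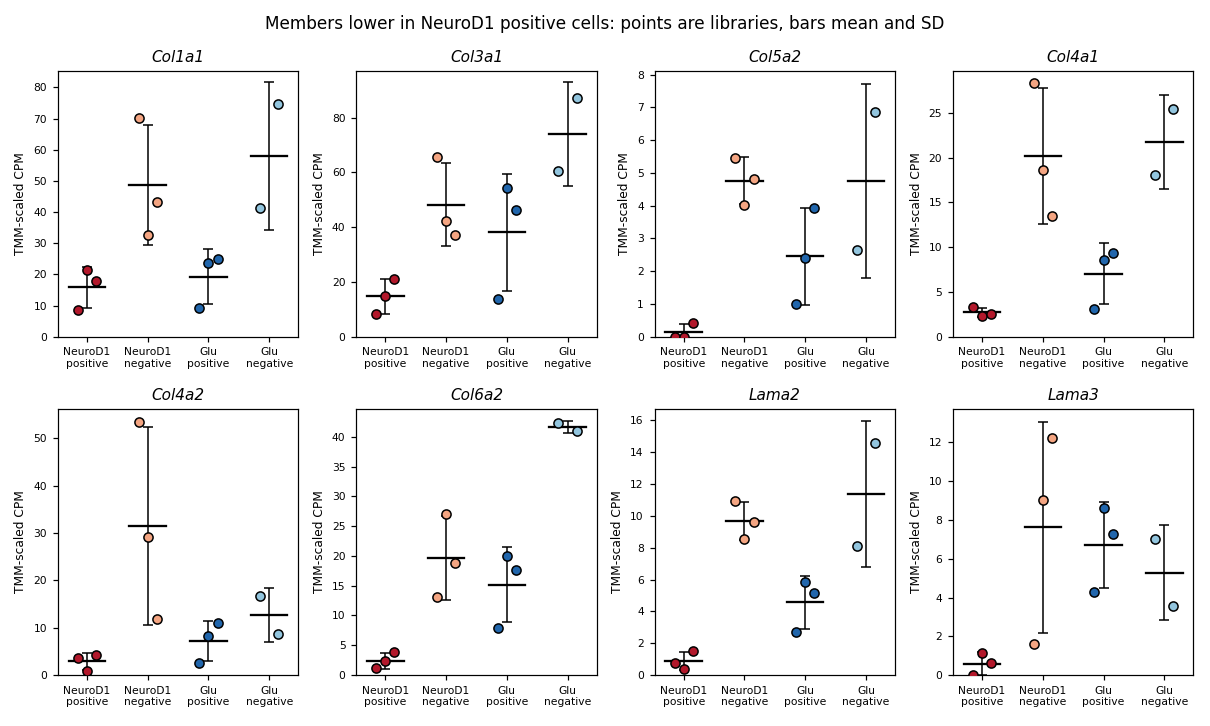
TMM-scaled CPM of the 8 members called lower in NeuroD1 positive cells, by group; points are libraries, the thick bar is the mean and the whiskers are 1 SD. All NeuroD1 positive libraries lie below all NeuroD1 negative ones in each panel, whereas Col4a2, Col5a2 and Lama3 overlap between the Glu groups.

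Most stromal marker genes tested moved with the members that fell. In the NeuroD1 strain the fibroblast marker Pi16, the pericyte marker Notch3 and the endothelial marker Egfl7 did not (log2 0.53, 0.13 and 0.59, not called). In NeuroD1 positive against negative cells, 4 of 9 tested fibroblast markers were lower (Mfap4, Fbln1, Dcn and Thy1, which T cells also express in mice). So were 4 of 8 smooth muscle markers (Cnn1, Lmod1, Acta2 and Myh11). The pericyte marker Rgs5 (1 of 4 tested) and the endothelial marker Tek (1 of 9 tested) were lower too. Mfap4, a microfibril protein of fibroblasts and smooth muscle, had a log2 fold change of -4.35 ± 0.82 (edgeR adjusted p = 0.00139). Among Glu cells, Mfap4 (log2 -2.55 ± 0.75, edgeR adjusted p = 0.0473) and the pericyte marker Cspg4 were lower, and 0 smooth muscle or endothelial markers were called.

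By library, the 8 smooth muscle markers summed to 21.4 to 57.0 CPM in NeuroD1 positive and 117 to 286 in NeuroD1 negative cells, and none was at 0 in any group. Their Glu sums were 39.7 to 259 CPM for positive and 217 to 273 for negative libraries. The 6 pericyte markers summed to 4.77 to 25.6 and 27.9 to 80.5 CPM in positive and negative cells of the NeuroD1 strain, and to 12.4 to 52.7 and 58.6 to 87.6 in those of the Glu strain. Higd1b was at 0 in all groups but NeuroD1 positive. Within the Glu positive group, Glu_positive_4665 had the lowest fibroblast sum (82.3 CPM, against 191 and 247) and the lowest smooth muscle sum (39.7 CPM, against 128 and 259). The same library had the lowest level of Col1a1, Col3a1, Col4a1, Col4a2, Col5a2, Col6a1, Col6a2, Col6a3, Lama2 and Lama3 of the 3, and the highest of Col6a5 and Col8a1. Col17a1 was at 10.2 CPM there, against 3.44 and 10.3. It also had the highest enteroendocrine sum, 28500 CPM against 10580 and 14920. The low sums of this library were not limited to stroma. Its immune sum (252.5 CPM, against 468.5 and 1309) and goblet sum (870 CPM, against 1367 and 2511) were the lowest of the group. So were its Paneth and tuft sums, but not its endothelial and enterocyte sums.

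Immune markers were lower in positive cells as well, with 8 of 8 called in the NeuroD1 strain and 5 of 8 in the Glu strain. Their sum was 35.3 to 108 CPM in NeuroD1 positive and 899 to 2315 in NeuroD1 negative libraries. Goblet, Paneth, tuft and enterocyte markers had sums of 345 to 549, 62.2 to 173, 6.61 to 27.1 and 3814 to 5272 CPM in NeuroD1 positive libraries. In NeuroD1 negative libraries the sums were 2196 to 3131, 397 to 1995, 76.3 to 99.5 and 5179 to 15680 CPM. Enterocyte sums were higher in the positive cells of the Glu strain, at 4489 to 7258 CPM in positive and 2989 to 3902 in negative libraries, with 1 of 6 markers (Sis) higher and 3 (Apoa4, Alpi and Fabp1) lower. Glu positive libraries had goblet, Paneth and tuft sums of 870 to 2511, 106 to 261 and 12.5 to 77.9 CPM, and Glu negative ones 3073 to 3996, 228 to 1042 and 72.1 to 126.9 CPM. Enteric glia and mesothelium were near absent, with at most 11.2 and 0.424 CPM summed and with Sox10, Foxd3 and Wt1 at 0 in every group. Enteric neuron markers summed to 11.4 to 21.6 CPM in NeuroD1 positive and 15.6 to 22.0 in NeuroD1 negative libraries, with Slc5a7 at 0 in both. The part of stromal or other non-endocrine cells in the members' differences was not tested, and in sorted bulk samples fewer cells of a type and less RNA per cell cannot be told apart.

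**Figure D5:**
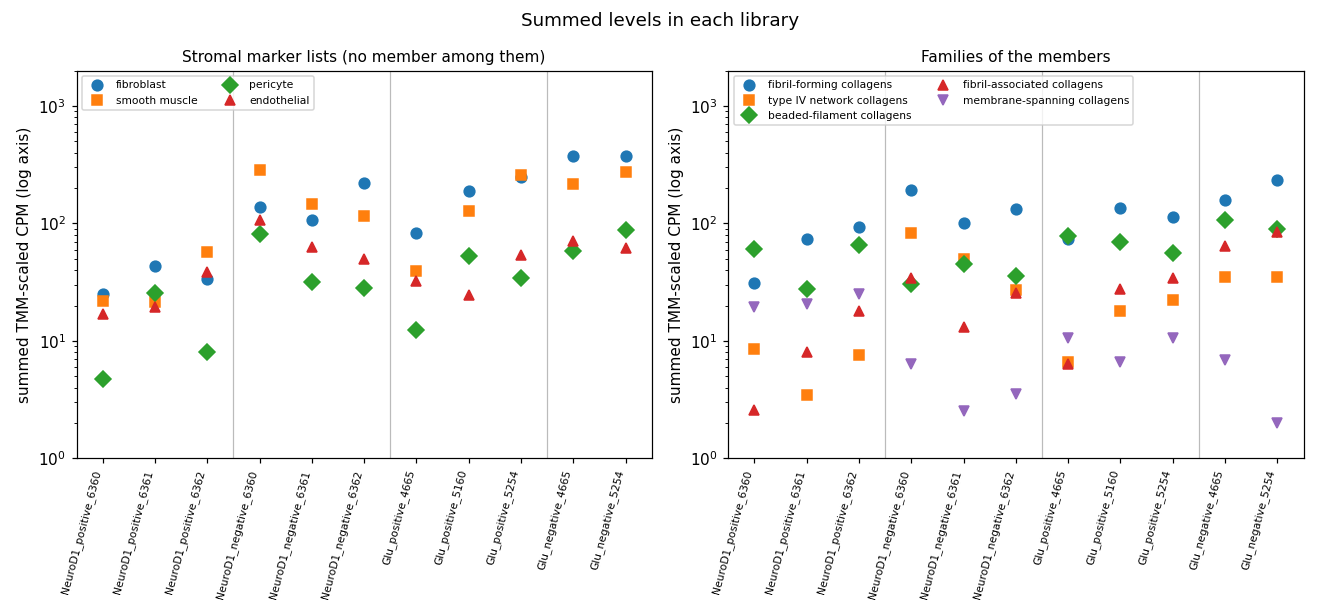
Summed TMM-scaled CPM in each of the 11 libraries (log axis) for 4 stromal marker lists (left) and for 5 families of members (right). Fibroblast, smooth muscle and pericyte sums are lowest in the NeuroD1 positive libraries and in Glu_positive_4665, where type IV collagens are also lowest, and the membrane-spanning collagens, mostly Col17a1, are highest in the NeuroD1 positive libraries.

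The positive populations of the strains were compared directly. Against Glu positive cells, 0 of 31 members were higher (3.18% of all genes) and 3 were lower (4.95% of all genes) in NeuroD1 positive cells. The lower ones were Lama3 (log2 -3.42 ± 1.02, edgeR adjusted p = 0.0443), Col6a1 (log2 -2.78 ± 0.73, edgeR adjusted p = 0.0238) and Col6a2 (log2 -2.59 ± 0.61, edgeR adjusted p = 0.0136). Col6a1 (ENSMUSG00000001119, chr10:76708792-76726168) was at 1.10, 1.14 and 2.12 CPM in NeuroD1 positive and 3.42, 17.2 and 11.2 in Glu positive libraries, and at 3.52, 6.53 and 4.80 and 31.4 and 24.5 in the respective negative ones. At an unadjusted p under 0.05, 10 members passed (24.6% of all genes). DESeq2 called 0 higher and 5 lower (4.95% and 7.82% of all genes). Limma voom called 0 in each direction (2.81% of all genes higher and 1.7% lower).

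For Col6a1, Col6a2 and Lama3, all NeuroD1 positive libraries lay below all Glu positive ones. Libraries of the positive groups did not overlap for 2 members higher (Col10a1 and Col17a1) and 7 lower in NeuroD1 positive cells (11.4% and 12.2% of all genes). The median over the 31 members was -0.82, against -0.14 for all genes. With library totals 1.97% of all genes were called higher and 8.25% lower, and 5 members were lower. The number of lower members was 0 without NeuroD1_positive_6360, 0 without NeuroD1_positive_6361, 1 without Glu_positive_5160 and 9 without Glu_positive_4665. The last of these libraries had the lowest fibroblast, smooth muscle, pericyte, immune and goblet sums of its group. The share of all genes called lower in these fits was 2.12%, 2.27%, 5.3% and 9.33%. Of the markers tested in the same comparison, 2 of 9 fibroblast (Thy1, which T cells also express in mice, and Postn), 2 of 8 smooth muscle (Cnn1 and Acta2) and 1 of 4 pericyte markers (Rgs5) were lower. So were 6 of 8 immune and 5 of 5 goblet markers, with medians of -2.72 and -2.51, against -1.66 for fibroblast and -1.33 for smooth muscle markers. Among them Ptprc, a surface protein of leukocytes, had a log2 value of -5.23 ± 0.73, and Muc2, the main goblet mucin, one of -2.75 ± 0.47. The part of these cells in the members' differences was not tested.

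Between the negative populations, edgeR called 0 of 31 members higher and 0 lower (0.363% and 0.126% of all genes), as did DESeq2 and limma voom, and 4 members had an unadjusted p under 0.05 (9.04% of all genes). Libraries did not overlap for 11 members lower and 0 higher in NeuroD1 negative than in Glu negative cells (16.5% and 15.3% of all genes). The fibroblast sum was lower in NeuroD1 negative cells too, at 107 to 220 against 374 to 378 CPM. Of 9 tested fibroblast markers 1 was called lower there, Thy1. The other stromal sums overlapped between the negative groups. In NeuroD1 negative against Glu negative libraries, smooth muscle was at 117 to 286 against 217 to 273 CPM. Pericyte sums were 27.9 to 80.5 against 58.6 to 87.6 CPM, and endothelial sums 50.2 to 107 against 61.9 to 70.5 CPM. The part of stromal cells was not tested. Col6a1, at 3.52, 6.53 and 4.80 against 31.4 and 24.5 CPM, had a log2 value of -2.51 ± 0.73 (edgeR adjusted p = 0.195).

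Whether the positive against negative difference itself depended on the strain was tested with the interaction term, for which 0 of 31 members were called higher and 0 lower by edgeR (0.0907% and 0.0209% of all genes), and likewise by DESeq2 and limma voom. At an unadjusted p under 0.05, 5 members passed (10.9% of all genes): Lama3, Col5a2, Col4a2, Col6a5 and Lama4. For Lama3 the difference between the strains' log2 fold changes was -3.92 ± 1.42 (edgeR adjusted p = 0.310), and for Col6a5 it was 2.73 ± 1.15 (edgeR adjusted p = 0.400). For Col17a1 and Col8a1 it was 1.04 ± 1.30 and -0.07 ± 0.82. The calls that passed in the NeuroD1 strain and not in the Glu strain were therefore not shown to differ between the strains.

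Ranked per kilobase of exon, the members differed in order between the groups. In NeuroD1 positive cells Lamc1 (10.2 CPM per kb) was followed by Col8a1 (5.30), Col6a5 (4.58), Col17a1 (2.82) and Col1a1 (2.42), where each after Lamc1 overlapped the next. In NeuroD1 negative cells Col1a1 (7.42) stood first, followed by Lamc1 (5.63), Col3a1 (4.92), Col4a2 (4.76) and Col4a1 (2.70). In Glu positive cells the order was Col8a1 (9.33), Lamc1 (8.01), Col3a1 (3.88), Col1a1 (2.94) and Col6a5 (2.88). In Glu negative cells it was Col1a1 (8.84), Col3a1 (7.53), Col6a1 (6.38) and Lamc1 (6.01). In each group these values are means over its libraries, and they are a description without a test.

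Genes that act with collagens and laminins were read from 3 lists. Of all genes tested, 6.57% were called higher and 7.61% lower in NeuroD1 positive cells. In Glu positive cells the shares were 4.22% and 2.41%. Of 17 tested receptors of the matrix, 2 rose and 3 fell in NeuroD1 positive cells, and 1 rose and 0 fell in Glu positive cells, with medians of -0.11 and 0.20. Bcam, a receptor for the laminin alpha 5 chain, was at 137 to 228 CPM in NeuroD1 positive and 18.7 to 21.6 in NeuroD1 negative libraries (log2 3.06 ± 0.52, edgeR adjusted p = 0.000530). It was at 24.0 to 96.6 CPM in the positive and 6.16 to 21.0 in the negative Glu libraries (log2 2.29 ± 0.59, edgeR adjusted p = 0.0259). The libraries were apart in each strain. The collagen-binding kinase Ddr1 also rose in NeuroD1 positive cells (log2 1.90 ± 0.58), and Itga11, a collagen-binding integrin chain of fibroblasts, Itgb4 and the syndecan Sdc1 fell (log2 -4.45 ± 1.08, -2.53 ± 0.43 and -1.89 ± 0.44). The 2 risers of the NeuroD1 strain became 1 when any of its libraries other than NeuroD1_negative_6362 was left out, and the Glu riser became 0 without Glu_positive_4665 or Glu_negative_4665.

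Of 15 tested matrix partners, 1 rose and 5 fell in NeuroD1 positive cells and 0 were called in Glu positive cells, with medians of -1.33 and -0.58. The riser was Ntn4, a netrin that binds laminin gamma chains, at 40.4 to 47.0 CPM in positive and 7.76 to 15.3 in negative libraries (log2 1.90 ± 0.59, edgeR adjusted p = 0.0357). The partners with the largest falls were Fbln1 (log2 -2.50 ± 0.59), Dcn (-2.26 ± 0.54), Fn1 (-2.07 ± 0.56) and Bgn (-1.94 ± 0.60), of which Fbln1 and Dcn are also on the fibroblast list. Ntn4 lost its call when any 1 library of the strain was left out, and the 5 falls became 3 and 2 without NeuroD1_positive_6360 and NeuroD1_positive_6361, and 3 and 1 without NeuroD1_negative_6360 and NeuroD1_negative_6362. DESeq2 called 2 partners higher and 1 lower in the Glu strain, and limma voom 0 and 2. By edgeR 2 were higher there without Glu_positive_5160 and 1 without Glu_positive_5254, and 1 was lower without Glu_positive_5160. Of 22 tested genes for collagen folding, processing and cross-linking, 1 rose and 1 fell in each strain. The shares of all genes called higher and lower were 6.57% and 7.61% in the NeuroD1 strain and 4.22% and 2.41% in the Glu strain. In NeuroD1 positive cells these were Bmp1, which trims procollagen (log2 2.47 ± 0.77), and P4hb, a subunit of prolyl hydroxylase, at 394 to 473 CPM in positive and 577 to 1208 in negative libraries. In Glu positive cells they were P4ha1, the catalytic subunit of that enzyme (log2 3.69 ± 0.98), and Ppib, a prolyl isomerase (log2 -2.23 ± 0.59). Bmp1 lost its call when any 1 library of its strain was left out, and P4hb when any but NeuroD1_negative_6361 was. P4ha1 lost its call without Glu_positive_4665 and Ppib without Glu_positive_5160, and each lost it without either Glu negative library.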

How the data were processed

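RNA from sorted duodenal cells was sequenced in 11 libraries, made from 2 ng of total RNA with the Ovation RNA-seq v2 kit, per the labels' protocols. The authors deposited 1 table of estimated counts per Ensembl gene, in which 848 of 38283 genes hold values that are not whole. Per the submitters' processing notes, CASAVA, TopHat2 2.1.0, Cufflinks 2.2.1 and GRCm38 were used; for the annotation release and strand, the sources used here give nothing. Counts were rounded. Symbols, coordinates and exon lengths came from GENCODE vM21, which matched 36341 genes. In edgeR 4.0.16 (R 4.3.3) genes were filtered with filterByExpr, scaled by TMM and fitted as 4 group means over all libraries with the quasi-likelihood test, and the script was tested on simulated counts. SE is the log2 fold change divided by the square root of F. Levels are TMM-scaled CPM, which between genes were compared only per kilobase of exon. Members with any call are described by library, as is the highest member per length of each family without one, and up to 4 called genes of each other list are named. 1 member is included in the counts over all members but is not reported here. The members and lists were chosen with earlier results of these data known. No library repeated another of its group: chi-square divided by its degrees of freedom was at least 17.0 for every pair. Alternatives were RLE size factors, library totals, exclusion of mt-Rnr1 and mt-Rnr2, no filter, DESeq2 1.42.0, limma voom 3.58.1, a replicate block, the compared groups alone, and each library left out. Same-numbered positive and negative libraries deviated from their group means with correlations of 0.00984 to 0.0459, and differently numbered ones with -0.0415 to 0.0201. Deviations within groups of 2 or 3 libraries cannot decide whether the numbers pair them. The main fit therefore took no pairing, and the replicate block was run as an alternative.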

Additional observations from a re-analysis of the deposited data

Results flagged for a closer look

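Col4a6, a minor type IV collagen chain with 22 counts over all libraries, was lower in NeuroD1 positive than in NeuroD1 negative cells and higher in Glu positive than in Glu negative cells, in each case with no overlap of libraries. It held 3 against 8 counts in the NeuroD1 strain and 8 against 3 in the Glu strain, ratios of 2.70 (exact interval at a confidence of 95% of 0.647 to 15.8) and 2.35 (0.565 to 13.8). It was below the filter on low counts, and the difference between the strains was not tested.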

How the results depend on the processing

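Each value of a named member was refitted under several alternatives, and the counts here are of refits. For values that edgeR called, 176 refits kept direction and call and 42 kept direction and lost the call. For values not called, 207 refits kept direction and stayed uncalled, 5 were called and 2 changed sign. The refits that changed sign were those of Lama3 in the Glu strain (0.33 in the main fit, -0.04 with library totals, -0.08 to 0.90 without single libraries). In the NeuroD1 strain, Col17a1, Col6a5, Col8a1, Col4a1, Col4a2, Col6a2 and Lama2 kept their call under all 14 alternatives, with log2 ranges of 4.41 to 5.12, 4.67 to 6.25, 2.56 to 3.20, -3.26 to -2.56, -3.83 to -2.78, -3.50 to -2.64 and -4.04 to -3.05.

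Members called lower in the NeuroD1 strain numbered 8 (7.61% of all genes) and 5 by limma voom (5.73% of all genes). They numbered 4 to 7 when single libraries were left out (5.03% to 6.11% of all genes). Members called higher in the Glu strain numbered 2, 1 with library totals, 1 with the compared groups alone and up to 3 without single Glu positive libraries. Members called lower there numbered 0, 2 with library totals, 1 with no filter, 1 by DESeq2, 3 by limma voom and 0 to 1 without single libraries. Members lower in NeuroD1 positive than in Glu positive cells numbered 3, 5 with library totals, 5 by DESeq2, 0 by limma voom, 0 with the compared groups alone and 0 to 9 without single libraries. The shares of all genes called lower were, in the same order, 4.95%, 8.25%, 7.82%, 1.7%, 2.81% and 2.12% to 9.33%. Between negative cells 1 member was lower with the compared groups alone (0.385% of all genes). In the Glu strain, the share of all genes called higher was 2.51% with library totals and 1.47% with the compared groups alone. The share called lower was 3.41% with library totals, 2.5% with no filter, 3.91% by DESeq2 and 3.17% by limma voom. Without single Glu positive libraries, 4.76% to 5.76% of all genes were higher and 1.95% to 2.6% lower. The fit of compared groups alone for single members was added after seeing the data.

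Among receptors, the higher count in the NeuroD1 strain was 1 with library totals and 1 to 2 without single libraries. In the Glu strain it was 0 to 1 without single libraries, and the lower count was 1 with library totals, 1 without mt-Rnr1 and mt-Rnr2, 1 with no filter and 1 by DESeq2. Among matrix partners, the higher count in the NeuroD1 strain was 0 with library totals, by limma voom and without single libraries, and the lower count was 1 to 4 without single libraries. In the Glu strain the higher count was 2 with no filter, 2 by DESeq2 and 0 to 2 without single libraries, and the lower count was 1 with library totals, 1 with no filter, 1 by DESeq2, 2 by limma voom and 0 to 1 without single libraries. Among genes of collagen maturation, the higher count in the NeuroD1 strain was 0 with library totals, by limma voom and without single libraries. The lower count was 2 with RLE size factors, library totals or exclusion of mt-Rnr1 and mt-Rnr2, 3 by DESeq2 and 0 to 1 without single libraries. In the Glu strain the higher count was 0 with library totals and by limma voom, and the higher and lower counts were 0 to 1 without single libraries.

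With the replicate number as a block, the Glu counts became 0 for higher receptors, 1 for higher and 1 for lower matrix partners, and 0 for higher and 0 for lower maturation genes, and 2 maturation genes were lower in the NeuroD1 strain. Of the named members the block took the call from Col1a1 in the NeuroD1 strain (-1.61, edgeR adjusted p = 0.0598) and from no other. The causes of these changes were not tested. With 2 Glu negative libraries, leaving 1 out rests the spread of that group on the other groups. Col17a1 and Col8a1 lost their Glu calls in these fits, in which fewer of all genes were called in each direction too. Members with few counts, such as Col5a2 and Col16a1, are limited by depth, and their intervals cover counting error only.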
